A study of Mus musculus with 39 samples.

Results

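The transcripts described here are the 200 of 34797 array gene names whose signal stood highest in untreated mouse 1-cell embryos relative to oocytes. They were chosen by the mean log2 level on the 3 untreated 1-cell arrays minus the higher of the 2 oocyte means, at the germinal vesicle (GV) stage and at metaphase II (MII). A level is the log2 of the array's processed signal minus the 75th percentile of that array, and a gene name is represented by its brightest probe. The difference used for the choice is called the rise below. It ranged from 5.99 to 1.66 over the 200 transcripts, with a median of 2.25, against a median of -0.33 over all gene names. The rise is given as a description with no test, and every comparison that uses the untreated 1-cell arrays shares them with the choice.

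The study asked how inhibitors of histone deacetylases (HDACs) alter gene expression in the first days after fertilization. Its 39 arrays covered 13 conditions with 3 arrays each, and 100 oocytes or embryos went into each array. B6D2F1 oocytes were fertilized in vitro with ICR sperm. Untreated samples were GV oocytes, MII oocytes, and 1-cell, 2-cell, 4-cell, 8-cell, morula and blastocyst embryos. Treated embryos received 10 µM T247, an inhibitor selective for HDAC3, or 10 µM MGCD0103, which inhibits the class I enzymes HDAC1, HDAC2 and HDAC3. Exposure lasted 6 h from 4 h after insemination, and embryos were collected at 12 h (1-cell), 24 h (2-cell) or 48 h (4-cell). All 3 of these stages were measured with T247, and the first 2 with MGCD0103. Each array is a pool of embryos, so fewer expressing embryos and less RNA per embryo cannot be told apart, and with labelling primed from poly(A) tails neither can new RNA and longer tails on stored RNA.

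After fertilization the mouse embryo first runs on RNA stored in the oocyte and then begins to transcribe its own genome. A weak and promiscuous minor wave of zygotic genome activation starts in the 1-cell embryo, and the major wave follows at the 2-cell stage. HDACs remove acetyl groups from histones and are generally associated with lower transcription, so inhibitors raise histone acetylation. Genes of recently duplicated families, among them the Usp17l deubiquitinating enzymes and the Pramel leucine-rich repeat proteins, are well-known members of the early activation programme.

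On each array 62.4 to 77.3% of spots were positive and significant, and 44.4 to 58.3% were well above background by the scanner software's flag. No spot was saturated, and the number of arrays limits the precision of every value. Slides 1 to 3 held the untreated replicates, while T247 occupied slides 4 and 5 and MGCD0103 occupied slide 6. Treatment and slide therefore cannot be told apart. The 2-cell control replicate 1 stood apart from replicates 2 and 3. Nothing in the labels says that the 3 samples of a condition came from separate fertilizations, and p-values measure the spread between these samples. All 21 oocyte markers examined were well above background on every GV, MII and 1-cell array. Of 18 cumulus and granulosa cell markers, 6 were so on all 3 arrays in each of the 3 1-cell groups. The summed log2 level of this list was 5.69 to 5.97 on control, 5.29 to 5.35 on T247 and 5.45 to 5.60 on MGCD0103 1-cell arrays. Of 18 sperm and spermatid markers, 5 were well above background on all 3 control 1-cell arrays and 6 on all 3 arrays of either treated group, and the summed level was 4.44 to 4.67 on control and 4.43 to 4.62 on treated arrays. Of these sperm markers 9 were not well above background on any control 1-cell array, 10 on any T247 and 7 on any MGCD0103 1-cell array. Prm1 and Tnp2, which encode nuclear proteins, and Odf1, a tail gene, were among these in all 3 groups. Prm2, Odf2 and Acr were well above background on at least 1 array of each 1-cell group. The part of either list in any result was not tested. No oocyte, cumulus or sperm marker was among the 200 transcripts.

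Some of these transcripts come from repeated loci. Of the 11 members in a pair of chromosome 8 loci, 3 have 60-base probes with a stretch of 48 bases in common. These probes are shown, with the common stretch in capitals, because results at the 2-cell stage turn on these loci. All are on the plus strand of build mm9, at chr8:57978845-57978904, chr8:57999026-57999085 and chr8:56199648-56199707. Their signals cannot be told apart from one another.
chr8:57977383-57985712_F: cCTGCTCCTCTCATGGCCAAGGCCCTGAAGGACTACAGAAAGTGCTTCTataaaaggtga
chr8:57994310-57999085_F: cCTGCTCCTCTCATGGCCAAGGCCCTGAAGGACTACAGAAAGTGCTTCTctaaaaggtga
chr8:56194344-56199712_F: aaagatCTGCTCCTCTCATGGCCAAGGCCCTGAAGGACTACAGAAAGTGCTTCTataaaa

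The 250 bases before the start of 5 members are shown from RefSeq (GRCm38.p6), since these genes carry results described below and 4 of them form 2 pairs of related genes. Of the 200 members 59 had a promoter in the RefSeq table, with 66 promoters in all. Capitals mark the TATA box letters TATAAA and the letters CCAAT, searched on both strands. They are Usp17lb (chr7:104842584-104842833, minus strand), Usp17lc (chr7:103416446-103416695, plus strand), Pramel37 (chr5:94070546-94070795, minus strand), Pramel39 (chr5:94306797-94307046, minus strand) and Gadd45g (chr13:51846425-51846674, plus strand).
Usp17lb: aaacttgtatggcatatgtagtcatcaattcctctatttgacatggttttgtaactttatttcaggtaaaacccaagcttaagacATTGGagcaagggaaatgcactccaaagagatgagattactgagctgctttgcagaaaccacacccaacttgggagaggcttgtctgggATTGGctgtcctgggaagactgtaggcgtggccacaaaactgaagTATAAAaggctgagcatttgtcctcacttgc
Usp17lc: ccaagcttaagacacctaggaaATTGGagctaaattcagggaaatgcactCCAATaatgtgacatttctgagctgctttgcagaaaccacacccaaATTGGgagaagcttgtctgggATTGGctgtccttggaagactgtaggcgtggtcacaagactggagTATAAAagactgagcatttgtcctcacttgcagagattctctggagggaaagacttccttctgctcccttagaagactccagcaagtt
Pramel37: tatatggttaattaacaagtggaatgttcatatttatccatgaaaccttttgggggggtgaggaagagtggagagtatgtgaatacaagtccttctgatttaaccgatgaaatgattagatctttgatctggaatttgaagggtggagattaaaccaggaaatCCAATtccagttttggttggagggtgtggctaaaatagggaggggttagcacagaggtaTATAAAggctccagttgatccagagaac
Pramel39: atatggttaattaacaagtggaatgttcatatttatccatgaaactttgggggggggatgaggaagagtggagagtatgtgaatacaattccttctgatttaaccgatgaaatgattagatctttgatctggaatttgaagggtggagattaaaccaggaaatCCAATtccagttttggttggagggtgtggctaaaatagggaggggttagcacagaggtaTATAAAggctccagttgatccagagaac
Gadd45g: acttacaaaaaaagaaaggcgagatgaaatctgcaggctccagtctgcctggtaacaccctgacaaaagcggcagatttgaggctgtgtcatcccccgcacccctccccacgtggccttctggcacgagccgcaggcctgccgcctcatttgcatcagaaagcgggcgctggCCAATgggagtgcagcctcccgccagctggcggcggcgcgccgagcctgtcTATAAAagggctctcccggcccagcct

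Set side by side without gaps, the upstream stretches of Pramel37 and Pramel39 matched at 212 of 250 bases (84.8%). Their first bases are out of step, and shifted bases count as mismatches, so this value understates their likeness. Those of Usp17lb and Usp17lc matched at 153 of 193 bases (79.3%) when one was moved by 57 bases, again without gaps. All 5 held TATAAA once and CCAAT at least once. Over the members' 66 promoters TATAAA was found in 18 (27.3%), against 12.4% of the 32851 promoters in the table, and CCAAT in 31 (47%), against 33.8%. The letters GGGCGG were found in 16 member promoters (24.2%), against 32.7%, and the median GC content was 53.2% against 52.4%. Related genes with similar promoters enter these counts more than once, and a match of letters is a description only.

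Of the 200 transcripts 77 could be named as a current gene. Among these 59 code for protein and 18 do not, namely 7 long noncoding RNAs, 10 entries annotated as pseudogenes of some kind and 1 miscellaneous RNA. The remaining 123 carry only clone, transcript, probe or coordinate names. Probes of 197 members have a mapped position, and 56 of them fall in 21 loci where neighbours lie within 500 kb. The largest loci are on chromosome 8 (6 members at 57978845 to 57999085 and 5 at 56197505 to 56202384 of mm9), chromosome 5 (5 members at 14944100 to 15168504) and chromosome 7 (4 members at 16041480 to 16277489). Of the 200 members 45 (22.5%) have a probe that aligns with a probe of another gene name over at least 25 bases at 90% identity or more, against 13.4% of all gene names, so that signals within a family are shared to an unknown extent.

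Gadd45g, a small stress-inducible protein that links DNA damage to growth arrest (chr13:51846675-51848475 of GRCm38), had the largest rise of a named gene, 5.96. Its levels were -3.53, -3.74 and -3.60 in GV oocytes, -4.67, -5.09 and -4.81 in MII oocytes, and 2.58, 2.04 and 2.41 in untreated 1-cell embryos. The next named members were the lncRNA 4930412F09Rik with a rise of 5.17, Pramel39 (5.02), Usp17lc (4.92), the pseudogene Usp17le-ps (4.41) and the pseudogene Gm17821 (4.36). Behind them came, among others, Fgd4, a guanine nucleotide exchange factor (3.98), Gm6252 (3.90), 1700003E24Rik (3.86), Fbxl12os (3.82) and the MHC class I gene H2-Q4 (3.62). Ttc14 (3.36), Usp17lb (3.23), the helix-loop-helix inhibitor Id2 (2.98) and Gm4340 (2.94) followed. The immune receptor gene Tigit (2.94) and Asb15 (2.82), an ankyrin repeat protein, were also well above background on all 3 untreated 1-cell arrays, but did not pass the filter for any test.

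The rule draws no natural line at the 200th transcript, whose rise of 1.658 was followed by 1.655. Just inside it lay Zfp651 (1.69), Cd300a (1.68) and Armcx3 (1.66), and just outside lay Ovol2 (1.65) and Vgll1 (1.63). Only 123 of the 200 members were well above background on all 3 untreated 1-cell arrays. A further 29 were so on 2 arrays and 48 on a single array, which was replicate 3 for 28 of them. The median SD of the 1-cell level was 0.32 among the 123, 0.66 among the 29 and 2.47 among the 48, against 0.16 over the 17965 gene names that were well above background on all 3 arrays. A transcript with 1 bright array could enter the list on that array alone. Eda2r, a p53 target and the only one of 19 listed p53 targets among the members, is such a case. Its 1-cell levels were -4.69, -6.11 and -0.11, and it was not well above background on any treated 1-cell array.

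Most transcripts bright on all 3 untreated 1-cell arrays were also detected in treated embryos, which the choice did not use. Of the 123, 118 were well above background on all 3 T247 1-cell arrays and 111 on all 3 MGCD0103 1-cell arrays. Of the 48 bright on a single untreated array, 8 and 5 were. Among the 123, replicate 1 had the highest level for 82 members and replicate 2 the lowest for 74, so the untreated 1-cell replicates were not evenly spread.

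The members followed several courses after the 1-cell stage. Their median level was -6.24 in GV and -5.54 in MII oocytes, -2.71 in 1-cell, -0.81 in 2-cell and -1.20 in 4-cell embryos, and it ended at -2.18 in blastocysts. Over all gene names the median was -3.21 in 1-cell and -2.61 in 2-cell embryos. The highest untreated mean was that of 1-cell embryos for 54 members, 2-cell embryos for 50, 4-cell embryos for 41, 8-cell embryos for 14, morulae for 14 and blastocysts for 27. Between the 1-cell and 2-cell stages 97 members gained at least 1 in the mean level, 51 lost at least 1 and 52 moved less. Among the 123 bright on all 3 untreated 1-cell arrays, 69 gained at least 1, 26 lost at least 1 and 28 moved less. The untreated 1-cell mean chose the members, so a highest mean there and a later loss are in part fixed by the choice. These counts are a description, with no share of all gene names beside them.

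**Figure D1:**
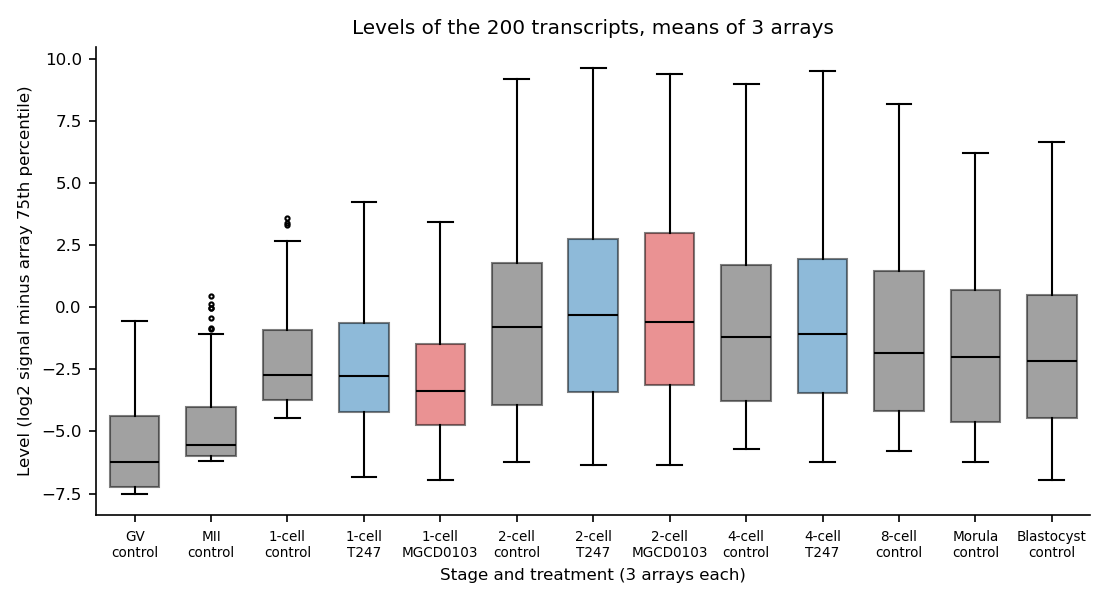
Level of the 200 transcripts by condition, as log2 of the signal relative to the array's 75th percentile, drawn from each member's mean over 3 arrays. The median of the members was -6.24 in GV oocytes, -2.71 in untreated 1-cell embryos and -0.81 in untreated 2-cell embryos, and -0.30 with T247 and -0.59 with MGCD0103 at the 2-cell stage.

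Lists of genes drawn up from general knowledge and from the study met few of the members. Of 29 genes of the minor activation wave and the 2-cell stage on the array, 3 were members, all from the Usp17l family, and 4 had a rise of at least 1. Of 15 zygote genes that the study names, 1 was a member, Gadd45g, and 6 had a rise of at least 1. Gadd45g was also the only member among 27 immediate early and stress genes. None of 29 S phase genes, 17 stored maternal mRNAs, 11 histone deacetylases or 30 polycomb subunits was a member.

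The inhibitors were first compared with each other at the 1-cell stage. The difference of MGCD0103 from T247 does not contain the untreated 1-cell levels that chose the members, although those arrays enter the filter and the pooled error of the fit. Pramel39, Pramel37, Usp17lc, Usp17le-ps, Id2, Gm4340, Etv2, a transcription factor of blood and vessel progenitors, and Ttc14 were lower with MGCD0103, as were the RIKEN clones 1700003E24Rik, 1700019M22Rik and 1700084M14Rik and the unnamed probe A_55_P2136612. The last aligns with the probe of Gm4340, and the probes of Usp17lc and Usp17le-ps align with each other. These members are therefore not all separate measurements. No member was higher. A call here and below means an adjusted p below 0.05 in limma over all 23066 gene names tested and a difference of at least 1 on the log2 scale, and 163 of the 200 members passed the filter on dim probes while 37 were not tested. These 12 members called lower were 7.36% of the 163, against 0.251% of all gene names tested. None was called higher, against 0.013%. At an unadjusted p below 0.05 in limma the counts with a difference of at least 1 were 1 higher and 24 lower. No share of all gene names was taken at that looser limit, so these counts have no background beside them.

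The Pramel genes encode leucine-rich repeat proteins of the PRAME family, and the 2 members lie near each other on chromosome 5 (Pramel39 at chr5:94302519-94306796 and Pramel37 at chr5:94066454-94070545 of GRCm38). Pramel39 stood at 0.46, -1.89 and -0.79 in control 1-cell embryos, at 0.38, 0.39 and 0.42 with T247 and at -2.31, -2.51 and -3.20 with MGCD0103. All MGCD0103 arrays lay below all others, while the T247 arrays overlapped the wide control range. MGCD0103 differed from T247 by -3.07 (log2, SE 0.45, limma adjusted p = 0.00589, n = 3 and 3). Pramel37 stood at -1.66, -1.69 and -1.39 with T247 and at -4.21, -4.82 and -4.29 with MGCD0103, a difference of -2.86 (SE 0.51, limma adjusted p = 0.0131). Its control mean was -2.61. It was not well above background on all 3 arrays in either the control or the MGCD0103 group, so its MGCD0103 values lie near the detection limit.

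The Usp17l genes encode deubiquitinating enzymes and include the cytokine-inducible Dub genes. Usp17lc (chr7:103416696-103419174 of GRCm38) stood at 0.50, -1.16 and -0.24 in control 1-cell embryos, -0.61, -0.44 and -0.57 with T247 and -2.30, -2.72 and -2.51 with MGCD0103. Again the MGCD0103 arrays lay below the rest, with a difference of -1.97 from T247 (SE 0.31, limma adjusted p = 0.00696). With the authors' normalized values this difference was -0.15 (adjusted p = 0.698), and the difference of MGCD0103 from control was turned to 0.65. In those values another probe may stand for the gene. Usp17le-ps, whose probe aligns with that of Usp17lc over 60 bases at 96.7% identity and cannot be told apart from it, differed by -1.92 (SE 0.28, limma adjusted p = 0.00589). Usp17lb missed the threshold at -1.44 (adjusted p = 0.0538), and Usp17le stood at -0.65 (adjusted p = 0.542).

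Id2, which binds and blocks basic helix-loop-helix factors, stood at -0.72, -2.26 and -1.49 in control, -0.92, -0.77 and -0.93 in T247 and -2.65, -3.00 and -2.76 in MGCD0103 1-cell embryos. The 3 MGCD0103 values lay below the other 6, and the difference from T247 was -1.93 (SE 0.26, limma adjusted p = 0.0034). Among the others 1700003E24Rik differed by -2.48 (SE 0.28, adjusted p = 9.82e-04), Etv2 by -1.68 (adjusted p = 0.00954) and Gm4340 by -1.66 (adjusted p = 0.00696). The transcript 1700084M14Rik was at least 4.77-fold lower with MGCD0103, where it was not well above background (adjusted p = 0.0114). Gadd45g, at 1.93, 2.12 and 2.01 with T247 and 1.15, 0.89 and 0.98 with MGCD0103, did not overlap between the inhibitors but missed the adjusted threshold (-1.01, adjusted p = 0.0571).

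**Figure D2:**
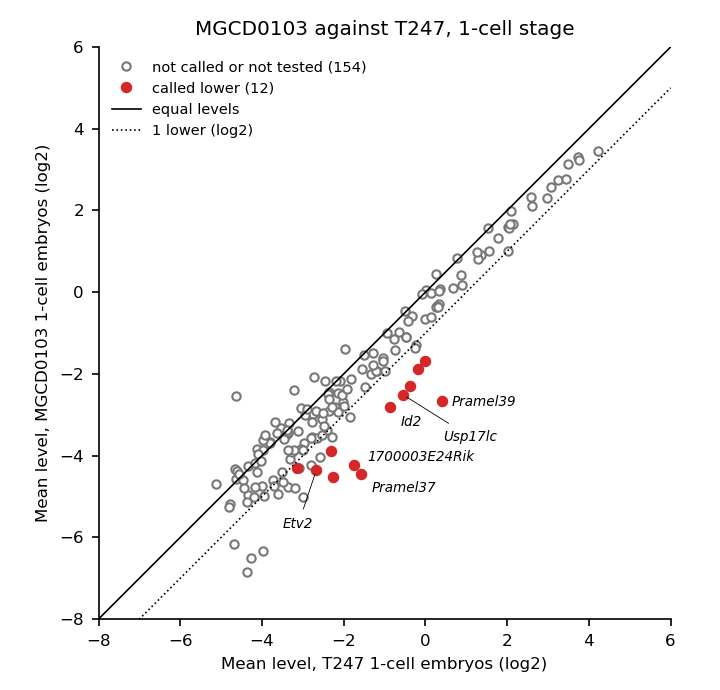
Mean level over 3 arrays in MGCD0103 1-cell embryos (vertical) against T247 1-cell embryos (horizontal), both as log2 relative to the array's 75th percentile, for the 166 members well above background on at least 1 array of either group. Filled points are the 12 members called lower, with differences of -3.07 to -1.15, and they lie on or below the dotted line that marks a difference of -1.

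The same direction was seen across the members below the call limit. The median difference was -0.49 over the 163 tested members and 0.01 over all gene names tested. Of 166 members with signal on at least 1 of the 6 arrays, all 3 MGCD0103 values lay below all 3 T247 values for 92 and above them for 6. Over all gene names with signal these shares were 18.0% lower and 18.0% higher. The number of calls depends on the fit. It was 15, all lower, with the untreated 1-cell arrays left out of the fit and the filter, a setting added after the data were seen. It was 7 with background-corrected (normexp) signals and 2 with the authors' normalized values, which cover 50 of the tested members. It was 6 without T247 1-cell replicate 2, 4 with slide as a random block and 0 when the 1-cell arrays were fitted alone. In that last fit 26 members had an unadjusted p below 0.05 and a difference of -1 or below. No share of all gene names was taken at that limit.

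Against untreated 1-cell embryos the counts lean on the arrays that chose the members and are given as a description only. With MGCD0103, 42 of 163 tested members were lower and 9 higher, against 1.13% and 3.53% of all gene names. The split was 16 lower and 5 higher with normexp signals, and 9 lower and 8 higher with the authors' values, where lower values did not prevail. With T247, 18 were lower and 18 higher, against 1.17% and 6.99%. With normexp signals the T247 split was 2 lower and 13 higher, and with the authors' values it was 2 lower and 14 higher. The members called lower with MGCD0103 included all 4 Usp17l genes (-2.215 to -1.067) and both Pramel genes (-1.937 to -1.827). With T247 none of these was called. Some members stood above the control range in both treated groups. Cd300a, an inhibitory receptor of leukocytes, stood at -2.16, -1.93 and -1.28 in control, 0.67, 0.61 and 0.75 with T247 and 0.02, 0.17 and 0.12 with MGCD0103. Slfn9, a Schlafen family gene, stood at -1.56, -1.55 and -1.05 in control, 0.34, 0.37 and 0.19 with T247 and -0.34, -0.18 and -0.58 with MGCD0103. Abca17, a lipid transporter of the ABC family, and Armcx3, a mitochondrial protein, followed the same pattern, with differences of 2.31 and 1.64 in T247 embryos and 2.03 and 1.34 in MGCD0103 embryos. The zinc finger gene Zfp30 was at least 2.34-fold lower with T247 and at least 2.30-fold lower with MGCD0103.

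At the 2-cell stage, 14 h after the exposure ended, more members stood above control than below it with either inhibitor. Gadd45g, Id2, the cell adhesion gene Pcdh8, Slfn9, Cd300a, Armcx3, Abca17, the lncRNA 4930412F09Rik and both Pramel genes were higher with either compound. Ttc14, Zfp30 and Pym1, a partner of the exon junction complex, were lower with either. With T247, 53 of 163 tested members were higher and 8 lower, against 13.3% and 9.65% of all gene names tested. With MGCD0103, 51 were higher and 12 lower, against 14.9% and 12.9%. The median difference of the tested members was 0.61 with T247, against 0.01 over all gene names, and 0.57 with MGCD0103, against 0.17. Both comparisons share the 2-cell control arrays. Among the 113 tested members bright on all 3 untreated 1-cell arrays, 37 were higher and 3 lower with T247 and 35 and 5 with MGCD0103.

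Gadd45g stood at 2.73, 2.17 and 1.93 in control 2-cell embryos, at 4.46, 4.34 and 4.31 with T247 and at 4.10, 4.11 and 4.30 with MGCD0103. Every treated array lay above every control array, by 2.09 with T247 (SE 0.23, limma adjusted p = 4.76e-07, n = 3 and 3) and 1.90 with MGCD0103 (SE 0.23, adjusted p = 1.35e-06). Id2 stood at 2.11, 1.73 and 1.49 in control, 3.70, 3.63 and 3.58 with T247 and 3.54, 3.51 and 3.65 with MGCD0103. It too did not overlap with control, and its differences were 1.86 (SE 0.26, limma adjusted p = 1.00e-05) and 1.79 (adjusted p = 1.45e-05).

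Pcdh8, a protocadherin whose list membership rested on 1 bright untreated 1-cell array, stood at -2.11, -2.84 and -2.32 in control 2-cell embryos. It stood at 0.70, 0.69 and 0.56 with T247 and 0.65, 0.69 and 0.81 with MGCD0103, in both cases far above control. The differences were 3.07 and 3.14 (SE 0.23 each, limma adjusted p = 7.09e-09 and 2.81e-09). At the 4-cell stage T247 did not stand above control, with control at -0.94, -0.83 and -0.95 and T247 at -1.80, -1.75 and -1.24.

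The Pramel genes, lower with MGCD0103 than with T247 in 1-cell embryos, were higher than control with both in 2-cell embryos. Pramel39 stood at 5.78, 4.49 and 5.02 in control 2-cell embryos, 6.83, 6.82 and 6.71 with T247 and 6.69, 6.52 and 6.76 with MGCD0103. The treated arrays lay above control by 1.69 with T247 (SE 0.45, limma adjusted p = 0.00493) and 1.57 with MGCD0103 (adjusted p = 0.00786). Pramel37 was higher by 1.69 (SE 0.51, adjusted p = 0.0104) and 1.51 (adjusted p = 0.0186). Between the inhibitors the 2-cell differences were -0.18 to -0.12 (SE 0.45 to 0.51, adjusted p of 0.837 to 0.877), and neither was called.

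Slfn9 stood at 0.14, 0.61 and 0.76 in control 2-cell embryos, 2.27, 2.38 and 2.34 with T247 and 2.11, 2.00 and 2.04 with MGCD0103. It was higher without overlap, by 1.83 and 1.55 (SE 0.22, limma adjusted p = 1.40e-06 and 9.16e-06). The lncRNA 4930412F09Rik was higher by 1.41 with T247 (SE 0.28, adjusted p = 4.04e-04) and by 2.10 with MGCD0103 (adjusted p = 5.60e-06). Cd300a (2.08 and 2.28), Armcx3 (1.90 and 2.23) and Abca17 (1.85 and 2.19) were higher with T247 and MGCD0103 respectively, and these genes had also stood above control at the 1-cell stage. The probes of Cd300a and Armcx3 align with probes of other gene names, so their signals may be shared.

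Reg2, which encodes a secreted lectin-like protein, was not well above background on any control 2-cell array, at -5.87, -6.21 and -6.24. It stood at -3.73, -2.77 and -3.51 with T247 and -2.29, -2.61 and -1.81 with MGCD0103. These are differences of at least 1.73-fold (adjusted p = 0.0368) and at least 3.70-fold (adjusted p = 0.00486). Reg2 was chosen through 1 bright array among untreated 1-cell levels of -6.14, 0.05 and -6.68. Lgals4, encoding a galectin, and Cypt2, a sperm head cytoskeleton gene, had wide control ranges. The 2-cell control replicate 1 stood at 3.30 for Lgals4 and 3.00 for Cypt2, while replicates 2 and 3 stood at -0.13 and -0.49, and at 0.47 and 0.70. With MGCD0103 Lgals4 was higher by 2.74 (SE 1.08, limma adjusted p = 0.0404), a call lost without control replicate 2 or 3 or any MGCD0103 replicate.

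Fewer members were lower. Zfp30, which encodes a KRAB zinc finger protein, stood at 0.22, 1.23 and 1.24 in control 2-cell embryos, at -1.09, -0.94 and -0.98 with T247 and at -2.03, -2.60 and -2.08 with MGCD0103. The groups did not overlap, and it differed by -1.90 with T247 (SE 0.38, limma adjusted p = 4.59e-04) and by -3.13 with MGCD0103 (adjusted p = 1.90e-06). Ttc14, a tetratricopeptide repeat protein gene, stood at -1.01, -0.17 and -0.41 in control, -1.98, -1.72 and -1.62 with T247 and -2.59, -2.56 and -2.62 with MGCD0103. It differed by -1.24 (SE 0.24, limma adjusted p = 2.54e-04) and -2.06 (adjusted p = 8.44e-07). Pym1, not well above background on any treated 2-cell array, was at least 1.05-fold lower with T247 (adjusted p = 2.25e-05) and at least 1.19-fold lower with MGCD0103 (adjusted p = 0.00263). Usp17lb was lower with MGCD0103, with a difference of -1.28 (SE 0.32, adjusted p = 0.0027), and differed by -0.40 with T247 (adjusted p = 0.372). Usp17lc, with differences of 0.33 and -0.09, was called with neither.

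**Figure D3:**
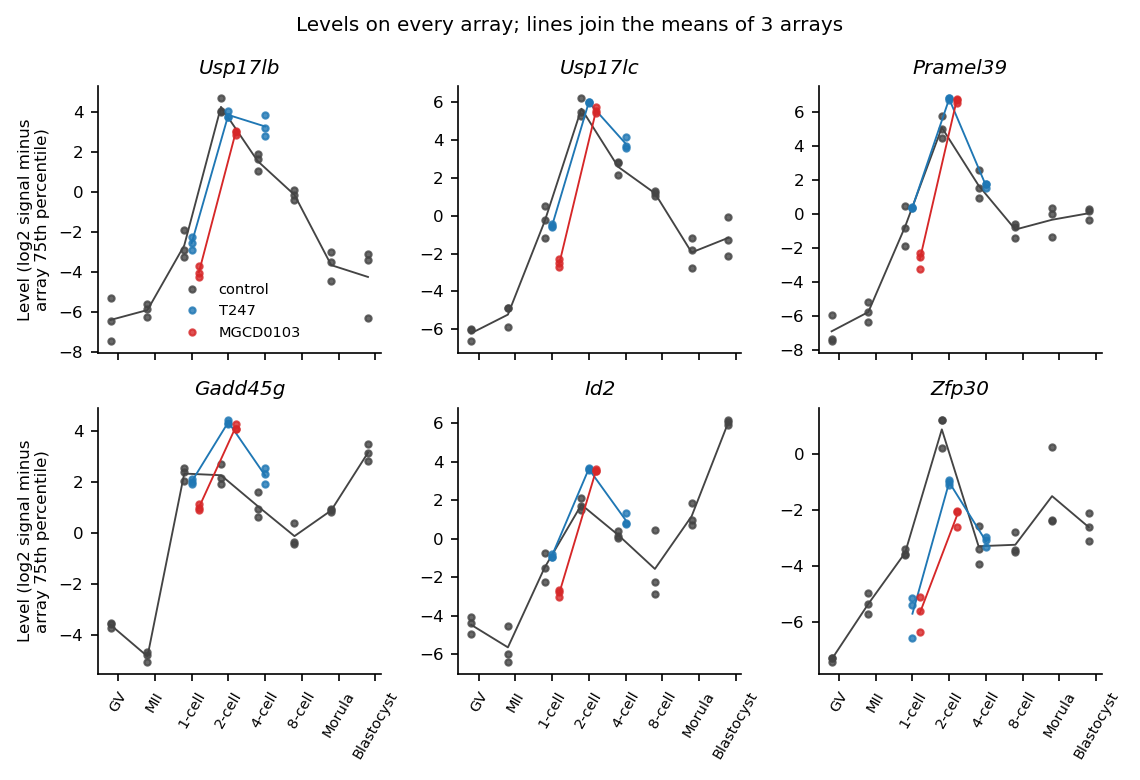
Level on each array, as log2 relative to the array's 75th percentile, of 6 named members in each condition, with a point for each of the 3 arrays and lines through their means. At the 2-cell stage the treated arrays of Gadd45g, Id2 and Pramel39 stood above the 3 control arrays, and at the 1-cell stage the MGCD0103 arrays of Pramel39 and Usp17lc stood below the T247 arrays.

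Members of the chromosome 8 loci moved together at the 2-cell stage. They were singled out after their values were seen. Of the 11 members 10 have a probe that aligns with one of another member over 33 to 60 bases at 93.9 to 100% identity, Gm7349, Gm2745 and Gm10674 included, so that they are not independent measurements. The probe chr8:57994310-57999085_F stood at 2.46, 1.00 and 1.36 in control 2-cell embryos, 4.11, 4.43 and 4.21 with T247 and 5.87, 5.50 and 5.89 with MGCD0103. The 3 groups did not overlap, and the differences from control were 2.64 with T247 (SE 0.39, limma adjusted p = 1.61e-05) and 4.15 with MGCD0103 (adjusted p = 6.19e-08). Gm7349, a predicted gene of the same locus, stood at -0.26, -0.86 and -0.52 in control, 2.36, 2.78 and 2.47 with T247 and 4.43, 4.12 and 4.44 with MGCD0103, which is higher by 3.08 and 4.88 (SE 0.30, limma adjusted p = 1.44e-07 and 3.83e-10).

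Over both loci 10 of 11 members were tested. With T247 9 were called higher, and the fitted differences of the 10 ran from 0.89 to 3.11 with a median of 2.65. The lowest was that of the probe A_55_P2038942 (adjusted p = 0.0584), which like Gm10674 was not well above background on any 2-cell control array. With MGCD0103 all 10 were called higher, with fitted differences of 1.58 to 4.96 and a median of 4.17. At the 1-cell stage the differences of the 10 from control ran from -1.92 to 0.36 with MGCD0103, with a median of -1.60 and 8 called lower, and from -1.17 to 0.55 with T247, with a median of -0.96 and 4 called lower. Gm10674 was the one above control with either compound. That stage shares its control arrays with the choice. At the 4-cell stage with T247 the median was 0.25 and 1 was called. In untreated embryos 8 of the 10 fell from the 2-cell to the 4-cell stage, with a median of -1.88. The chromosome 5 locus behaved otherwise, with 0 of 5 members called at the 2-cell stage with either compound and medians of 0.11 and 0.03.

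**Figure D4:**
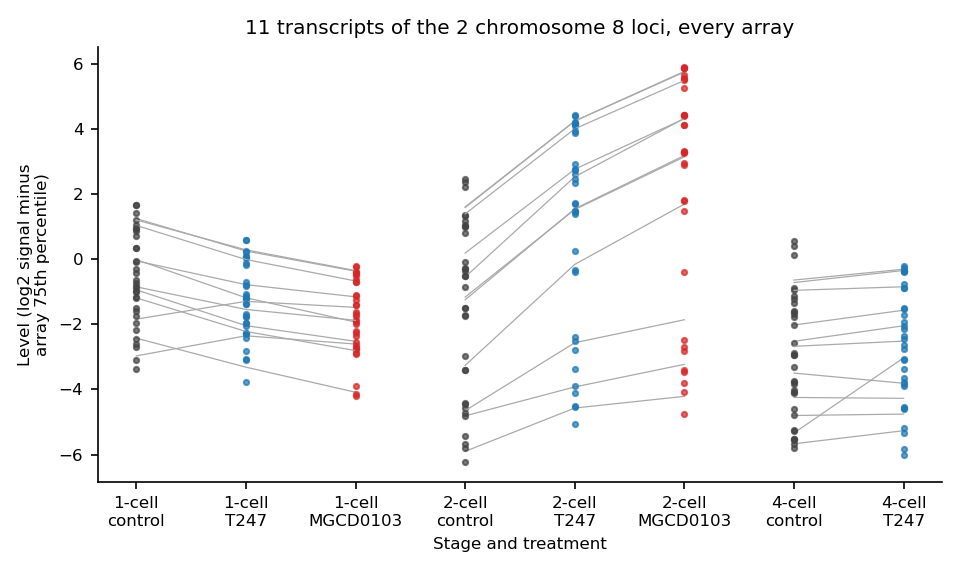
Level of the members of the 2 chromosome 8 loci in control, T247 and MGCD0103 embryos, as log2 relative to the array's 75th percentile, with a point for each array and lines through each member's means. Median levels over the 11 members at the 2-cell stage were -1.16 in control, 1.55 with T247 and 3.19 with MGCD0103.

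Between the inhibitors at the 2-cell stage, the chromosome 8 loci made up most of what differed. MGCD0103 was higher than T247 for 10 of 163 tested members and lower for 2, against 0.949% and 2.76% of all gene names tested, and 8 of the 10 lie in these loci. Their differences over the 10 tested locus members ran from 0.69 to 1.85 with a median of 1.54. Gm7349 differed by 1.80 (SE 0.30, limma adjusted p = 7.31e-04) and Gm2745 by 1.64 (SE 0.32, adjusted p = 0.00228). The others higher were Syt7, a calcium sensor of vesicle fusion, by 1.14 (SE 0.34, adjusted p = 0.0289), and the transcript ENSMUST00000172340, by 1.37 (adjusted p = 0.0117). Zfp30 differed by -1.24 (SE 0.38, adjusted p = 0.0321), and the calls of Syt7 and Zfp30 were lost under several alternative settings. The count of 12 fell to 7 without T247 2-cell replicate 1 or without MGCD0103 2-cell replicate 1, and to 4 with slide as a random block.

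The 12 members lower with MGCD0103 than with T247 in 1-cell embryos were not called between the inhibitors in 2-cell embryos. Their differences there ran from -0.82 to -0.07 with a median of -0.34, after a median of -1.93 at the 1-cell stage. The difference between these stages was not tested. Against 2-cell control 6 of the 12 were higher and 1 lower with T247, against 13.3% and 9.65% of all gene names tested. With MGCD0103 4 were higher and 1 lower, against 14.9% and 12.9%. The 12 were picked by their 1-cell call in these data. They include like probes, Usp17lc with Usp17le-ps and Gm4340 with A_55_P2136612, so they are not all separate measurements.

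**Figure D5:**
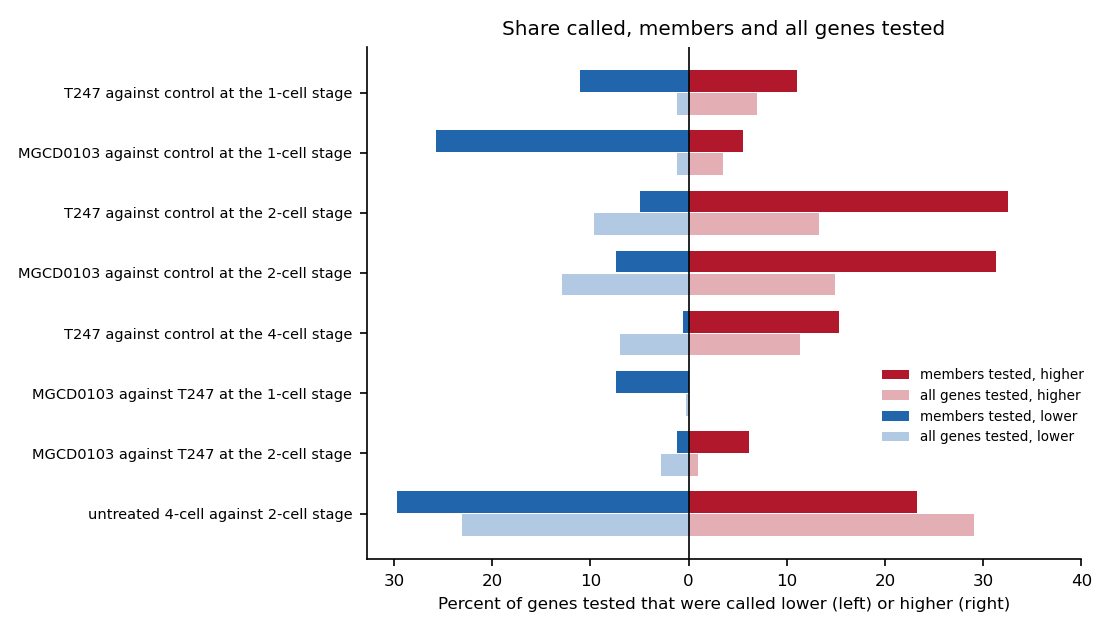
Share of members called higher and lower (percent of the 163 tested members) in each comparison, beside the share of all gene names tested. The comparison of untreated stages rests on 172 members. With T247 at the 2-cell stage 32.5% of tested members were higher, against 13.3% of all gene names, and between MGCD0103 and T247 at the 1-cell stage 7.36% were lower, against 0.251%.

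At the 4-cell stage, measured with T247 alone, fewer members differed and nearly all of those were higher. All 4 Usp17l genes were higher, together with Cypt2, Slfn9, Gadd45g, Etv2, Abca17, Armcx3, 1700084M14Rik and 1700019M22Rik. In all 25 of 163 tested members (15.3%) were higher and 1 (0.61%) lower, against 11.3% and 6.94% of all gene names tested. The share higher lay near this background, and the share lower lay below it. Over all gene names tested, calls with T247 were also fewer than at the 2-cell stage. There were 2609 against 3057 higher and 1600 against 2227 lower. The median difference was 0.16 over the tested members and -0.06 over all gene names. Quantile scaling gave 23 higher and 4 lower, normexp signals 12 higher and 1 lower, and the authors' values 9 higher and 0 lower.

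Usp17lb (chr7:104840257-104842583 of GRCm38) stood at 4.68, 4.01 and 4.03 in control 2-cell embryos and at 1.64, 1.89 and 1.05 in control 4-cell embryos. With T247 it stood at 3.20, 3.82 and 2.77 at the 4-cell stage, between the control levels of the 2 stages. The 4-cell arrays did not overlap, and T247 was higher by 1.73 (SE 0.32, limma adjusted p = 2.32e-04, n = 3 and 3). Usp17lc stood at 2.82, 2.76 and 2.16 in control and 3.70, 4.18 and 3.56 with T247, a difference of 1.23 (SE 0.31, adjusted p = 0.00319), and Usp17le-ps differed by 1.51 (adjusted p = 2.88e-04). Usp17le, at -1.12, -1.10 and -1.91 in control and -0.23, 0.05 and -0.91 with T247, was higher by 1.01 (SE 0.29, adjusted p = 0.0075) but fell below the call limit without 4-cell control replicate 3.

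Cypt2, a gene of the cytoskeletal layer around the sperm nucleus, was well above background on 1 untreated 1-cell array only. Its probe aligns with probes of other gene names, so its signal may be shared. At the 4-cell stage Cypt2 stood at -3.98, -2.19 and -3.35 in control and 0.01, 0.65 and -0.35 with T247, without overlap. Cypt2 was higher by 3.28 (SE 0.64, limma adjusted p = 4.39e-04). Slfn9 stood at 0.44, 0.87 and 0.99 in control and 2.55, 2.40 and 1.63 with T247, higher by 1.43 (adjusted p = 3.59e-05). Gadd45g stood at 0.94, 1.60 and 0.64 in control and 2.31, 2.56 and 1.93 with T247, higher by 1.21 (adjusted p = 2.75e-04), while the Pramel genes differed by -0.02 to -0.01 (adjusted p of 0.975 to 0.992).

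In untreated embryos many members changed between the 2-cell and 4-cell stages. In the fit of the 8 untreated stages 172 members were tested, of which 40 were higher and 51 lower at the 4-cell stage, against 29.1% and 23.1% of 26771 gene names. The shares of the members, 23.3% and 29.7%, lay near this background. All 4 Usp17l genes fell, with differences of -3.07 to -2.71. Pramel39 fell by 3.40 (SE 0.59, limma adjusted p = 4.29e-05) and Pramel37 by 3.55 (SE 0.60, adjusted p = 3.53e-05). Zfp30 fell by 4.19 (SE 0.52, adjusted p = 6.38e-07), Cypt2 by 4.57 (SE 0.54, adjusted p = 3.65e-07) and the coiled-coil gene Ccdc89 by 3.65. Gadd45g fell by 1.22 (SE 0.27, adjusted p = 5.34e-04). The 4 members of the chromosome 7 locus named above fell by 4.36 to 5.38.

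In the other direction Reg2 rose at least 13.8-fold and Crygf, a lens crystallin, at least 6.45-fold from the 2-cell to the 4-cell stage, both from levels not well above background. The lncRNA 1700048O20Rik rose at least 4.61-fold (limma adjusted p = 8.37e-09), Pym1 by 2.04 and Pcdh8 by 1.52. The potassium channel gene Kcnk18 stood at 0.83, 0.26 and 0.12 at the 2-cell stage and -3.32, -4.75 and -4.02 at the 4-cell stage, where it was not well above background on any array. It was at least 16.7-fold lower (adjusted p = 8.19e-11). Each slide of untreated arrays held both stages, and the median difference over the 172 members was -0.06, 0.26 and 0.34 within slides 1, 2 and 3.

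The treated differences of the 2-cell stage were also set against those of the 1-cell stage, which again brings in the untreated 1-cell arrays and is given as a description. Between these stages the difference from control, taken with its sign, rose by at least 1 for 30 tested members with T247. It fell by at least 1 for 3, against 5.25% and 7.57% of all gene names. With MGCD0103 it rose for 62 and fell for 3, against 7.62% and 10.9%. A rise here can also be a 1-cell deficit that shrank. The T247 count was 48 higher and 6 lower without 2-cell control replicate 1.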

How the data were processed

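RNA from 100 oocytes or embryos per sample was labelled with a low-input one-colour kit and hybridized to Agilent SurePrint G3 8x60K mouse arrays. The deposited scanner tables hold the processed signal intensity that the authors obtained with Agilent Feature Extraction (version 9.5.1.1 in the submitters' processing notes, while the file headers give 10.7.1.1), with background correction but without scaling between arrays. Each array had 59305 spots for 55681 probes. Control spots were left out, as were spots flagged as outliers unless every spot of the probe was flagged. The remaining spots of a probe were averaged, and log2 intensities were set relative to the 75th percentile of each array. The values of 1 file (MGCD0103 1-cell replicate 1) are rounded to 3 digits. The authors also deposited a value table on the log2 scale for 19143 probes, normalized between arrays and with missing values filled in, which served only as an alternative. There a gene name was its brightest probe among those with a value, which may be another probe than in the main values. No column belonged to samples outside the series.

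A gene name is its brightest probe. Of the 55681 probes 27235 were named through an accession, 3581 through a symbol and 565 through a synonym in RefSeq (GRCm38.p6), and 24300 were not named. The members and the gene lists were chosen with earlier results of these data known. Named genes are the 20 members with a current symbol and the largest rise that were well above background on all 3 untreated 1-cell arrays, up to 3 members in each direction per comparison whose arrays do not overlap, members held by a list, and the 3 members or genes on either side of the limit, of which 1 is not reported here. Of the 20, A130077B15Rik, 4930557B15Rik and 4933409K07Rik are not described here. Locus members and genes of the lower 12 outside that rule were named after their values were seen.

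Differences were tested in limma 3.58.1 (R 4.3.3) with lmFit and eBayes on the 24 arrays of the 8 treated and matched control conditions, or on the 24 untreated arrays for the 4-cell against the 2-cell stage, and adjusted by Benjamini-Hochberg. Genes had to be positive and significant on at least 1 array in each of the 8 conditions, or in both stages for the untreated comparison. A group not well above background on any array gives a fold only as a bound. The replicate numbers did not pair the samples, with correlations of -0.13 to 0.16 between same-numbered samples, and the correlation within slides was 0.21. The fit was tested on simulated data for the comparisons with control at the 2-cell stage and with T247 at the 4-cell stage. Probe likeness was searched with BLAST 2.17.0.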

Additional observations from a re-analysis of the deposited data

Results flagged for a closer look

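Taken with their sign, the differences from control were higher at the 2-cell than at the 1-cell stage for part of the members. This is the interaction of stage and treatment in limma, and a higher value can mean a larger gain or a smaller deficit. The members were chosen for a high untreated 1-cell mean, and that mean enters each of these changes with a plus sign, so the direction is in part fixed by the choice and the values are a description only. With T247 the difference was higher at the 2-cell stage for 30 members (18.4% of those tested) and lower for 3 (1.84%), against 5.25% and 7.57% of all gene names. Of the 30, 5 had a group not well above background on any array, as had 1 of the 3, and such members are given no value. The change in the T247 difference (log2) was 2.96 for Pcdh8, which was bright on 1 untreated 1-cell array only, 2.42 for Gadd45g, 1.33 for Gm4340 and 1.24 for Id2.

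With MGCD0103 the difference was higher at the 2-cell stage for 62 members (38.0%) and lower for 3 (1.84%), against 7.62% and 10.9% of all gene names. Of these, 15 and 2 had a group not well above background. The change was 3.50 for Pramel39, 3.34 for Pramel37, 3.23 for Gadd45g, 3.10 for Id2, 2.68 for Pcdh8 and 2.66 for Gm4340. It was 2.56 for 1700003E24Rik, 2.51 for Cypt2, 2.12 for Usp17lc, 1.76 for Usp17le-ps and 1.23 for Usp17le. For 4930412F09Rik it was 1.15 and for Fbxl12os 1.12. That of Usp17lc was turned to -0.87 with the authors' normalized values, in which another probe may stand for the gene.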

How the results depend on the processing

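Each count is of members called, out of 163 tested (172 for untreated stages). With the authors' normalized values, which cover 50 tested members, the counts were 16 with T247 and 17 (8 higher and 9 lower) with MGCD0103 in 1-cell embryos, 19 with each in 2-cell embryos, 9 for T247 at the 4-cell stage, 2 and 5 between the inhibitors at the 1-cell and 2-cell stages, 12 (8 higher and 4 lower) and 17 (14 higher and 3 lower) for the changes in the T247 and MGCD0103 differences, and 20 (3 higher and 17 lower) for untreated 4-cell against 2-cell embryos. These values moved the median of all genes from 0.01 to -0.31 for T247 at the 2-cell stage. The fall of Usp17lc with MGCD0103 at the 1-cell stage turned to 0.65 and its change to -0.87 with them, where another probe may stand for the gene. With normexp they were 15 and 21 (T247 and MGCD0103, 1-cell), 13 (T247, 4-cell), 7 (between inhibitors, 1-cell) and 56 (untreated stages). Array weights gave 27 (inhibitors, 1-cell) and 60 (change in T247), adjusted p alone 54 at the 4-cell stage, slide as a random block 4 and 4 between the inhibitors, and the 1-cell arrays alone 0. Leaving the untreated 1-cell arrays out of the fit and the filter, chosen after seeing the data, gave 62, 63, 27, 15, 14 and 93 for the 6 comparisons whose difference does not contain them.

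Leaving out 1 array gave 26 to 35 and 38 to 55 calls (T247 and MGCD0103, 1-cell), 55 to 70 and 54 to 78 (2-cell), 24 to 30 (4-cell), 6 to 13 and 7 to 11 (between the inhibitors), 28 to 54 and 49 to 74 (changes) and 85 to 91 (untreated stages). With the replicate number as a block they were 35, 52, 62, 63, 26, 13, 12, 36, 66 and 92 in the same order, and the block moved none by over 1.5 times. The list itself kept 45 members with the authors' values, 54 with normexp, 88 against MII alone, 123 when limited to members bright on all 3 arrays and 150 to 158 without 1 replicate number. Of 7040 values of single genes under an alternative, 6692 neither lost nor gained a call, 233 lost and 113 gained the call. A further 2 belonged to called results and reversed their direction. Changes of direction in results that were not called were not counted. Why they moved was not tested.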

Other observations

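Some members stood far apart on single arrays of a condition. Lgals4 was at 0.08, -0.54 and 4.14 in control 4-cell embryos and at 0.27, 0.41 and 3.88 with T247, so replicate 3 was high in both groups although the numbers did not pair the samples elsewhere. H2-Q4, whose probe was well above background on all 3 untreated 1-cell arrays, differed little with either inhibitor, at 6.31, 6.01 and 6.00 in control 2-cell embryos, 6.44, 6.57 and 6.51 with T247 and 6.65, 6.39 and 6.43 with MGCD0103. The member with the largest rise, an unnamed probe at chr5:15168445-15168504 of mm9, stood at 3.76, 3.26 and 3.22 in control 2-cell embryos, 3.34, 3.33 and 3.31 with T247 and 2.97, 3.06 and 2.97 with MGCD0103, and was called with neither.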
